A study of Mus musculus with 9 samples.

Results

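A set of 10 genes for nucleoside salvage and adjoining steps of nucleotide metabolism was followed in spleen cells of mice exposed to social threat. The uridine phosphorylase gene Upp1 stands at their head. The other 9 were Cda, Uck1, Uck2, Umps and Dpyd of pyrimidine metabolism and Pnp, Ada, Hprt and Adk of purine metabolism. They are 10 of 18193 genes that had a probe set of their own on the array, and 25 probe sets named them alone. Upp1 had been picked because it was among the genes with the largest rise in threat animals, so its difference between the groups is given as a description with no test. The other 9 were named for their role in the pathway, with results of these data already known. A gene with several probe sets is represented by the probe set with the highest mean over all 9 arrays. Upp1 had 1 probe set.

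The cells were CD11b+ splenocytes of C57BL/6 mice, obtained from the adherent fraction of the spleen with magnetic beads against CD11b, the integrin of monocytes, macrophages and granulocytes that Itgam encodes. The threat group (HighThreat) consisted of 6 animals that met repeated social threat, each on an Affymetrix MOE430 array of its own. The control group (LowThreat) consisted of 6 animals under non-threatening conditions, whose RNA was pooled by 2 into 3 arrays, named pools 1-2, 3-4 and 5-6. All animals shared the strain and the sort, and the labels used here name no age, sex or length of exposure. The comparison asks how threat and control differ in expression in these cells. Values are on a log2 scale, so equal differences are equal folds, and the 9 arrays limit the precision of every difference.

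Cells obtain nucleotides either by building them from small precursors or by reusing nucleosides and bases that are set free when nucleic acids are broken down. In the pyrimidine branch of salvage, cytidine deaminase turns cytidine into uridine, uridine kinases return uridine to the nucleotide pool, and uridine phosphorylase splits it into uracil and a phosphorylated ribose, whose sugar can enter central carbon metabolism. In the purine branch, adenosine deaminase and purine nucleoside phosphorylase lead adenosine and guanosine to free bases, which phosphoribosyltransferases can reuse, while adenosine kinase returns adenosine directly to AMP. Myeloid cells take up much nucleic acid with the cells they engulf, and extracellular adenosine dampens many of their responses.

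The windows before the transcription starts of 4 members are shown, chosen for the widest differences by the probe sets used. These were upward in Upp1, Ada and Pnp and downward in Uck2, which fell less by its other probe sets above the filter. Each line holds the 250 bases before the most upstream annotated start, from RefSeq on build GRCm38.p6, read 5′ to 3′ on the strand of the gene. The Upp1 window lies at chr11:9117758-9118007 on the plus strand, the Ada window at chr2:163750240-163750489 on the minus strand, the Pnp window at chr14:50944053-50944302 on the plus strand and the Uck2 window at chr1:167285128-167285377 on the minus strand. Capitals mark matches to any of 7 motifs on either strand.
Upp1: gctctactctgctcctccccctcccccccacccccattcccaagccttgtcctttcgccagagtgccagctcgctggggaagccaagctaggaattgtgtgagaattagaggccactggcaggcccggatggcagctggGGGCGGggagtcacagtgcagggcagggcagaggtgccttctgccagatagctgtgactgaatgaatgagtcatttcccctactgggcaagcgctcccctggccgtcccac
Ada: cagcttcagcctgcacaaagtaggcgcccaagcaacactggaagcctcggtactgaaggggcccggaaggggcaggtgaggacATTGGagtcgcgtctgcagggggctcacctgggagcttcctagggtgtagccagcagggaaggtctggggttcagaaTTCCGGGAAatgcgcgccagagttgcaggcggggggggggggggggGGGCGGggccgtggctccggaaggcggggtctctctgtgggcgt
Pnp: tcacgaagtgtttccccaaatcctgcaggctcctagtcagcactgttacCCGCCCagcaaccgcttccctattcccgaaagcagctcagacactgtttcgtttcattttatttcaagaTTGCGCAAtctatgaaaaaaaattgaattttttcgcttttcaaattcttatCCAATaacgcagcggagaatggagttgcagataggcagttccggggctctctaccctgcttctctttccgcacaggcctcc
Uck2: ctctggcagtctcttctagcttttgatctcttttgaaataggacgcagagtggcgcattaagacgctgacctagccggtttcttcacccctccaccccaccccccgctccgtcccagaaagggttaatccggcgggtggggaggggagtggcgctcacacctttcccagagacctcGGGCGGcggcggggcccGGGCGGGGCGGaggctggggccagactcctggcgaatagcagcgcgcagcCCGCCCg

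The motifs searched were the GC box GGGCGG, the CCAAT box, the TATA-type motif TATAAA, the E-box CACGTG, the cAMP response element TGACGTCA, the STAT-type palindrome TTCNNNGAA and the C/EBP-type motif TTGCNNAA. All 10 members had a window in the table. Upp1 held a single match, a GC box that begins 111 bases before the start, and the windows of its other 2 annotated starts held that same match and none. The GC box occurs in 32.7% of the 32851 windows of this length. Uck2 held 4 GC boxes, 2 of which overlap, and no other match. Ada held a GC box, a CCAAT box, which 33.8% of all windows hold, and a TTCNNNGAA match, which 7.02% hold. Pnp held a GC box, a CCAAT box and a TTGCNNAA match, which 9.56% hold. No window of the 10 members held CACGTG or TGACGTCA, which occur in 6.02% and 1.55% of all windows. A match in these letters is a description and no sign of binding.

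Of the 10 genes, 8 were bright enough to enter the test, which asked for a mean of at least 2.66, the 40th percentile over probe sets with the array's own controls left out. The means of Cda and Dpyd lay below it. Across all 13078 genes tested with limma, 45.8% differed between the groups at an adjusted p under 0.05, 23.8% higher and 22.0% lower in threat animals. Beside Upp1, 7 members were tested. Of these, Pnp, Ada and Adk rose, Uck1 and Uck2 fell, and Umps and Hprt did not pass. The share that passed, 5 of 7, stands beside a background in which nearly as many genes passed as failed. In the same 5 genes no threat animal lay within the range of the control pools, which held for 41.8% of all genes tested.

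**Figure D1:**
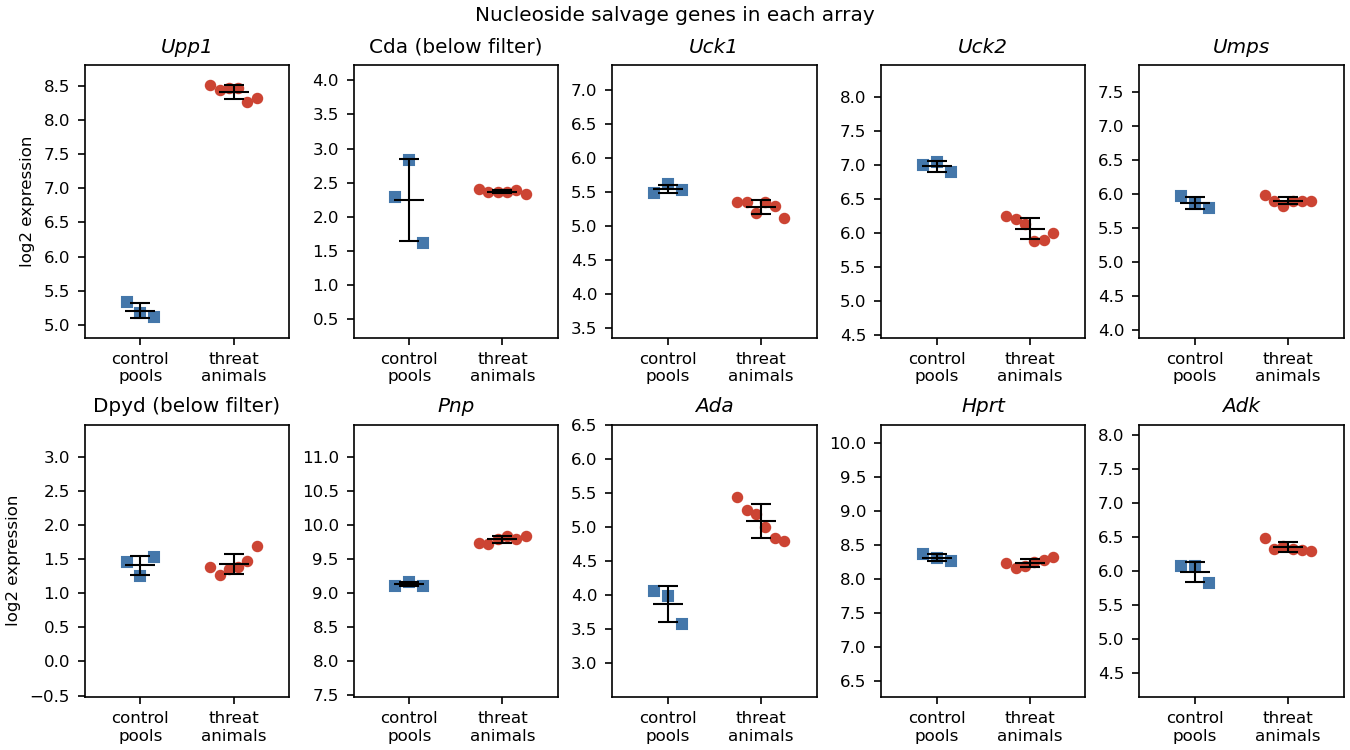
Log2 expression of the 10 genes in each array, with squares for the 3 control pools and circles for the 6 threat animals. Black bars give the mean and SD, and every panel spans the same 4 log2 units. Upp1 shows the widest gap, Ada and Pnp lie higher and Uck2 lower in all threat animals, and the means of Cda and Dpyd lie below the filter.

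The marker genes of other cells moved widely between the same groups, and in bulk RNA fewer cells of a type and less RNA per cell cannot be told apart. The markers of CD11b+ myeloid cells were present, and of 10 tested 9 rose and none fell, with a mean log2 value of 10.71 to 10.78 in control and 11.07 to 11.13 in threat arrays. Of 15 tested markers of granulocytes and their precursors 14 rose, and their mean went from 8.38 to 8.55 in control arrays to 9.75 to 10.19 in threat arrays. Of 19 cell cycle genes 15 rose and 2 fell, with means of 4.69 to 4.94 against 5.32 to 5.89. The 2 that fell were the replication helicase genes Mcm6, by 1.13, and Mcm3, by 0.22, while Mcm5 rose by 0.46 and Mcm2 and Mcm4 did not pass (-0.15 and -0.088). With quantile normalization Mcm3 did not pass (-0.18, limma adjusted p = 0.079) and Mcm4, by another probe set, differed by 0.11. Of 11 B cell markers 10 fell, with means of 6.35 to 6.59 against 4.52 to 4.88, as did 7 of 9 natural killer cell, 5 of 7 T cell and 7 of 8 dendritic cell markers. The brightest gene of each list was among those that passed: Lyz2, S100a9, Mki67 and the platelet chemokine gene Ppbp rose by 0.12, 0.47, 1.13 and 0.58. Cd79a, Klrd1, Cd4, Ccr7 and the transferrin receptor gene Tfrc fell by 2.31, 1.52, 0.41, 1.89 and 1.23. Among erythroid markers 1 of 5 rose and 1 fell, and 3 of 6 platelet markers rose. The haemoglobin gene Hba-a1 had 1 probe set naming it alone, which lay below the filter, and Hbb-b1 had none. Probe sets naming several genes were not used, so this does not show that haemoglobin RNA was absent. As a check on RNA degradation, the gap between the 3' and 5' control probe sets of beta-actin was 0.472 ± 0.063 in control (SD, n = 3) and 0.357 ± 0.034 in threat arrays (SD, n = 6), and that of Gapdh was -0.035 ± 0.052 (SD, n = 3) and -0.071 ± 0.088 (SD, n = 6). The part of these shifts in the values of the 10 genes was not tested between the groups.

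Upp1 encodes the phosphorylase that splits uridine into uracil and a ribose phosphate. Its log2 values were 5.33, 5.18 and 5.11 in control pools 1-2, 3-4 and 5-6, and ran from 8.27 to 8.51 with a median of 8.46 in the 6 threat animals. Every threat animal lay far above every control pool. The means were 5.20 ± 0.11 (SD, n = 3) and 8.42 ± 0.097 (SD, n = 6), a difference of 3.21 (SE 0.068) or 9.28-fold, the 7th largest rise among the genes tested. The spread within a group was small beside this gap, with a range of 0.247 among threat animals and of 0.221 among control pools. The highest threat value was that of threat animal 1 and the lowest that of threat animal 5.

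The genes whose levels over the 9 arrays were most like those of Upp1 were the neutrophil collagenase gene Mmp8 (Pearson r = 0.9998), Wfdc21 (r = 0.9996), the interferon-induced membrane protein gene Ifitm1 (r = 0.9994), the lectin gene Clec4a2 (r = 0.9994) and the triglyceride synthesis gene Dgat2 (r = 0.9992). These values are a description over 9 arrays that fall into 2 groups, so they mostly reflect the gap between the groups, and 164 genes reached 0.99. Within the 6 threat animals alone r was 0.92 for Mmp8, 0.94 for Wfdc21, 0.97 for Ifitm1, 0.89 for Clec4a2 and 0.68 for Dgat2. The genes were chosen over 9 arrays that include these 6, so the values are not independent of the choice. How many other genes reach such an r in the 6 arrays was not counted, so no relation to Upp1 is drawn from them. The differences of the named genes were narrower than that of Upp1, from 1.13 (SE 0.047) for Clec4a2 to 2.76 (SE 0.060) for Mmp8.

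The members Uck1 and Uck2, whose kinases return uridine and cytidine to the nucleotide pool, moved the other way. Uck2, the more active of the uridine-cytidine kinases, had log2 values of 6.998, 7.04 and 6.89 in the control pools and of 5.88 to 6.25 with a median of 6.06 in threat animals. All 6 threat animals lay below all control pools, with threat animal 4 lowest and threat animal 1 highest. The means were 6.98 ± 0.077 (SD, n = 3) and 6.06 ± 0.16 (SD, n = 6), and the gene fell by 0.92 (SE 0.084, limma adjusted p = 2.0e-06), a 1.89-fold difference. The size of the fall depended on the probe set. Against this value of the brightest probe set, the other 4 probe sets above the filter gave -0.39, -0.15, -0.27 and -0.48, all lower in threat animals, with adjusted p-values between 0.00047 and 0.036 when limma was run on every probe set. A sixth probe set lay below the filter. When probe sets that match only 1 transcript came first, the difference of Uck2 was -0.39 (adjusted p = 0.00022).

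Uck1, the companion kinase, was measured by 1 probe set. Its values were 5.49, 5.61 and 5.53 in the control pools and 5.11 to 5.35 with a median of 5.32 in threat animals. The groups did not overlap, but the gap was narrow, from 5.35 to 5.49. Uck1 fell by 0.27 (SE 0.063, limma adjusted p = 0.0039), a 1.20-fold difference. A further relative from the list of other pathway genes, Uckl1, rose by 0.22 (SE 0.047, limma adjusted p = 0.0021), so the kinase family did not move as a whole.

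Of the remaining pyrimidine members only Umps was bright enough to be tested, and it did not pass. Umps, which carries out the last steps of uridine monophosphate synthesis, had values of 5.97, 5.86 and 5.80 in the control pools and 5.83 to 5.99 with a median of 5.90 in threat animals. Of the 6 threat values 5 lay within the range of the control pools and that of threat animal 1 just above it, with a difference of 0.030 (SE 0.053, limma adjusted p = 0.685). Its next brightest probe set differed by 0.17, which passed narrowly when probe sets that match only 1 transcript came first (adjusted p = 0.047) and not when every probe set was fitted (adjusted p = 0.059). Without control pool 5-6 the difference of Umps was -0.010 (adjusted p = 0.916).

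Cda and Dpyd were dim, with means over the 9 arrays below the filter. Cda, whose product deaminates cytidine to uridine, had values of 2.29, 2.83 and 1.62 in the control pools and of 2.33 to 2.40 in threat animals. The control pools spread over 1.21 log2 units and enclosed all threat values, and pool 3-4 lay above the filter. Dpyd, whose product begins the breakdown of uracil, had values of 1.46, 1.26 and 1.53 in the control pools and of 1.27 to 1.70 in threat animals, and its other 2 probe sets were dimmer still. At the 40th percentile filter neither gene was tested. With no filter the adjusted p-values were 0.647 for Cda and 0.917 for Dpyd. A low array value does not show that a gene is silent.

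Among the purine members, the genes of the enzymes that lead from adenosine and inosine to free bases rose. Ada encodes adenosine deaminase, which turns adenosine into inosine. It had values of 4.06, 3.99 and 3.57 in the control pools and of 4.80 to 5.44 with a median of 5.10 in threat animals. All threat animals lay above all control pools, and both groups spread widely, over 0.645 and 0.491 log2 units. The means were 3.87 ± 0.26 (SD, n = 3) and 5.09 ± 0.25 (SD, n = 6), and Ada rose by 1.21 (SE 0.14, limma adjusted p = 1.7e-05), a 2.32-fold difference.

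Pnp encodes purine nucleoside phosphorylase, which splits inosine and guanosine into base and ribose phosphate. It had values of 9.11, 9.17 and 9.11 in the control pools and of 9.73 to 9.85 with a median of 9.80 in threat animals. The spread within each group was the narrowest among the tested members. Pnp rose by 0.66 (SE 0.046, limma adjusted p = 1.8e-07), a 1.58-fold difference that was seen in 6 of 6 threat animals. A second probe set names both Pnp and its close copy Pnp2 and was therefore not used for the gene, and it differed by 0.66 (SE 0.052). Because of the copy the assignment of the signal to Pnp alone is uncertain.

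Of the purine members that rebuild nucleotides, Adk rose and Hprt did not pass. Hprt, whose product reuses hypoxanthine and guanine, had values of 8.37, 8.31 and 8.27 in the control pools and of 8.17 to 8.33 with a median of 8.25 in threat animals. The groups overlapped, and the difference of -0.072 (SE 0.050, limma adjusted p = 0.267) did not pass. Adk, whose product phosphorylates adenosine, had values of 6.08, 6.08 and 5.83 in the control pools and of 6.30 to 6.49 with a median of 6.33 in threat animals. The groups did not overlap, and Adk rose by 0.36 (SE 0.066, limma adjusted p = 0.00061), a 1.28-fold difference. Of its 6 probe sets 3 lay above the filter. They differed by 0.36, 0.33 and 0.16, the last of which did not pass (adjusted p = 0.102 with every probe set fitted), and the mean of all its probe sets gave 0.16 (adjusted p = 0.0052).

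**Figure D2:**
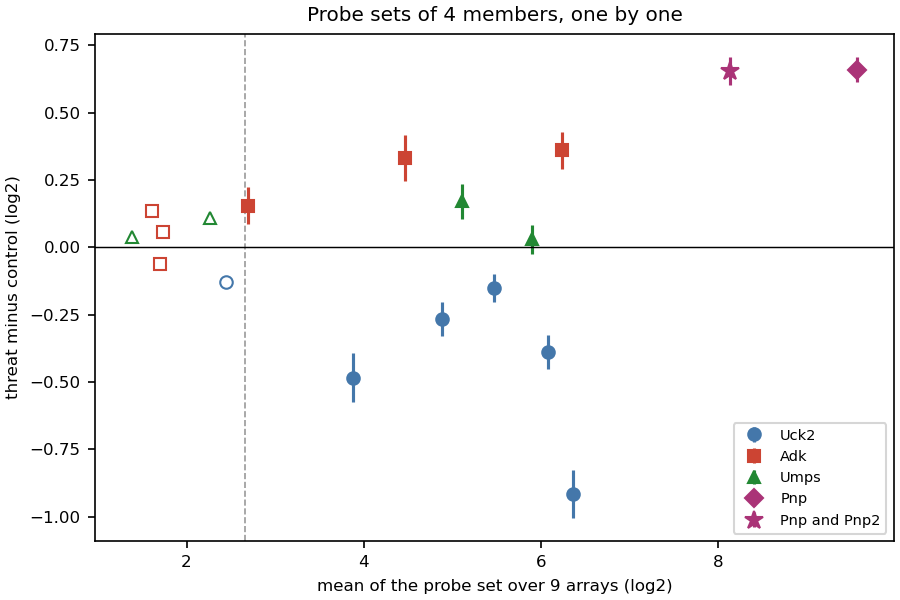
Difference between threat and control arrays against the mean of the probe set over 9 arrays, both in log2 units, for the probe sets of Uck2, Adk, Umps and Pnp. Bars give the SE, open symbols lie below the filter (dashed line at 2.66) and have no SE, and the star is the probe set shared by Pnp and Pnp2. All Uck2 probe sets lie below 0, but the brightest fell more than the others.

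The other genes of pyrimidine and purine metabolism were grouped by function in 6 lists with 71 genes, of which 53 were tested. Of these 14 rose and 18 fell, beside 23.8% and 22.0% of all genes tested, and their median difference was -0.011 beside 0.029 over all genes tested. In the list of purine synthesis the genes that passed all fell, in that of deoxynucleotide supply they all rose, and in the salvage lists they moved both ways.

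**Figure D3:**
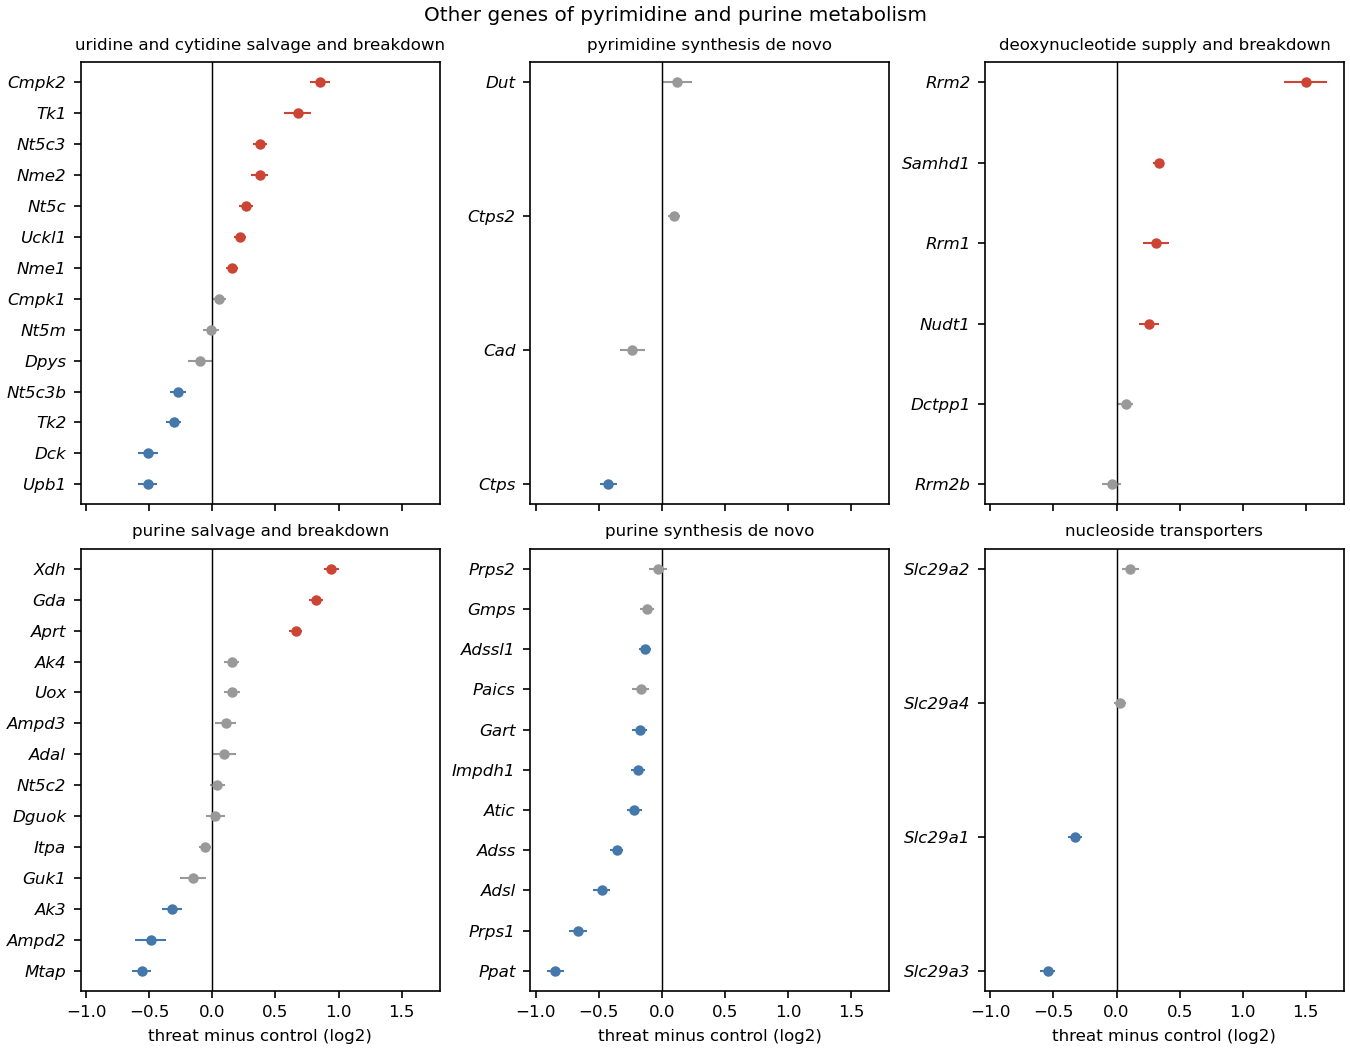
Difference between threat and control arrays (log2, with SE) for the 53 tested genes of the 6 lists, in order of size within each list. Red genes rose and blue genes fell at a limma adjusted p under 0.05, and grey genes did not pass. The 11 genes of purine synthesis lie below 0, of which Prps2 turned to 0.0094 with quantile normalization and to 0.0089 without threat animal 2.

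Of 11 tested genes of purine synthesis de novo 8 fell and none rose, beside 22.0% of all genes that fell. Their median difference was -0.19. Ppat, the enzyme that commits precursors to the pathway, had values of 4.11, 4.19 and 4.27 in the control pools and 3.21 to 3.52 in threat animals, and fell by 0.85 (SE 0.067, limma adjusted p = 5.5e-07). Prps1, which makes the activated ribose that both synthesis and salvage consume, fell by 0.66 (SE 0.072, limma adjusted p = 8.7e-06) from 5.80 ± 0.095 (SD, n = 3). Adss, the brightest gene of this list, whose product leads towards AMP, fell by 0.36 (SE 0.052), and Adsl, Atic, Impdh1, Gart and Adssl1 fell by between 0.47 and 0.13. Prps2, Paics and Gmps did not pass, with differences of -0.028, -0.17 and -0.12. Without control pool 1-2 the number that fell was 5.

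Among 14 tested genes of purine salvage and breakdown 3 rose and 3 fell (21.4% each), near the 23.8% and 22.0% of all genes tested, with a median of 0.066. Those that rose were the oxidase gene Xdh, which makes uric acid, by 0.94 (SE 0.060, limma adjusted p = 7.0e-08), the guanine deaminase gene Gda by 0.82 (SE 0.057, limma adjusted p = 1.5e-07) and the adenine phosphoribosyltransferase gene Aprt by 0.66 (SE 0.049, limma adjusted p = 3.0e-07). In each the 6 threat values lay above the 3 control values, for Xdh from 7.71 to 7.95 against 6.84 to 6.92. The falls were those of Mtap, which recovers adenine from methylthioadenosine, by 0.56, Ampd2 by 0.49 and Ak3 by 0.32. Xdh, Gda and Aprt passed at 1.5-fold or more, as did the members Ada and Pnp, where 11.2% of all genes tested passed at that fold in either direction.

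Of 14 tested genes of uridine and cytidine salvage and breakdown 7 rose and 4 fell, beside 23.8% and 22.0% of all genes tested, with a median of 0.11. Cmpk2, a mitochondrial nucleotide kinase known as interferon-inducible, rose by 0.85 (SE 0.081, limma adjusted p = 2.6e-06), from 4.62, 4.86 and 4.90 in the control pools to 5.45 to 5.79 in threat animals. The thymidine kinase gene Tk1, a gene of dividing cells, rose by 0.68 (SE 0.11, limma adjusted p = 0.00019), and the nucleoside diphosphate kinase gene Nme2, brightest here, by 0.38 (SE 0.066). Dck, which phosphorylates deoxycytidine and the purine deoxynucleosides, fell by 0.51 (SE 0.078). The mitochondrial kinase gene Tk2 fell by 0.31 (SE 0.058), and Upb1, whose product ends uracil breakdown, fell by 0.51 (SE 0.076). Dpys, whose product acts between Dpyd and Upb1, did not pass (-0.098, limma adjusted p = 0.417). Upp2, the other uridine phosphorylase gene, lay below the filter.

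Of 6 genes of deoxynucleotide supply and breakdown 4 rose and none fell, beside 23.8% and 22.0% of all genes tested. The ribonucleotide reductase gene Rrm2, a gene of S phase, rose by 1.498 (SE 0.17, limma adjusted p = 1.5e-05), with threat values spread from 6.19 to 7.10. Its partner Rrm1 rose by 0.31, Nudt1 by 0.26 and Samhd1, a deoxynucleotide hydrolase of myeloid cells, by 0.33 (SE 0.045). Without control pool 5-6 the number that rose was 2. Rrm2 and Tk1 rose beside most of the cell cycle markers given above, but of the 5 Mcm genes of DNA replication among them only Mcm5 rose, also with quantile normalization and median centring. The part of these markers in Rrm2 and Tk1 was not tested. Of 4 tested genes of pyrimidine synthesis the CTP synthase gene Ctps fell by 0.42 (SE 0.068), while its relative Ctps2, the brightest, differed by 0.097 (limma adjusted p = 0.124). Leaving out threat animal 1 gave 2 falls in that list. Of 4 tested nucleoside transporters the lysosomal Slc29a3 fell by 0.55 (SE 0.060) and the surface transporter Slc29a1 by 0.33 (SE 0.055), and none rose unless the probe sets of a gene were averaged, when 1 did.

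The 6 threat animals also differed among themselves, and each member was set against 3 marker scores within that group, which leaves the difference between threat and control out of the relation. A score is the mean log2 value of the tested markers of a list. There were 30 relations, 10 members by the scores of granulocytes, cell cycle and B cells. After adjustment over all 30, 3 passed for Pearson's r and none for Spearman's rho. With 6 arrays a single perfect rank order gave rho an adjusted p of 0.0833 (exact permutation p = 0.00278), so 1 relation alone could not pass for rho. Before adjustment 8 relations had p under 0.05 for r, and these were relations of Ada, Upp1 and Dpyd. Dpyd, which lay below the filter, had r of -0.775 with the granulocyte score (exact permutation p = 0.0417) and -0.813 with the B cell score (exact permutation p = 0.0222). All 3 that passed were those of Ada.

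Ada followed the granulocyte score with r = 0.957 (exact permutation p = 0.00278, adjusted p = 0.0278, n = 6) and rho = 0.943 (exact permutation p = 0.0167, adjusted p = 0.125). For the cell cycle score r was 0.964 (exact permutation p = 0.00278, adjusted p = 0.0278) and rho 0.943 (exact permutation p = 0.0167, adjusted p = 0.125). For the B cell score r was 0.971 (exact permutation p = 0.00139, the smallest that 720 pairings can give, adjusted p = 0.0278) and rho 1 (exact permutation p = 0.00278, adjusted p = 0.0833). Without the 2 arrays farthest from the median score r was 0.971, 0.933 and 0.925, from few arrays over a narrow range of each score. The 3 scores followed each other with r of 0.984 to 0.996 in these animals, so the relation of Ada cannot be assigned to any of them. The values of Ada in threat animals 1 to 6 were 5.44, 5.25, 5.19, 5.003, 4.84 and 4.80, the order of the animals' numbers, and the B cell score had the same order. In the control pools, too, Ada and the granulocyte and cell cycle scores were highest in pool 1-2 and lowest in pool 5-6. The B cell score was highest in pool 1-2 but lowest in pool 3-4. The labels do not say what the numbers stand for, the permutation tests treat the animals as exchangeable, and the part of any order of handling in these relations was not tested.

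Upp1 also lay higher where the granulocyte score was higher (r = 0.941, exact permutation p = 0.0153), but this did not pass after adjustment (adjusted p = 0.111; rho = 0.829, exact permutation p = 0.0583, adjusted p = 0.159). Without the 2 arrays farthest from the median score r was 0.490. That value comes from few arrays over a narrow range of the score, so it cannot show what the relation rests on. The range of Upp1 among threat animals, 0.247, was small beside its difference of 3.21 between the groups. Pnp had r of -0.640 with the same score (exact permutation p = 0.164, adjusted p = 0.223; rho = -0.600, exact permutation p = 0.242, adjusted p = 0.302). Its r without the 2 farthest arrays was -0.906, again from few arrays over a narrow range of the score and with no test.

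**Figure D4:**
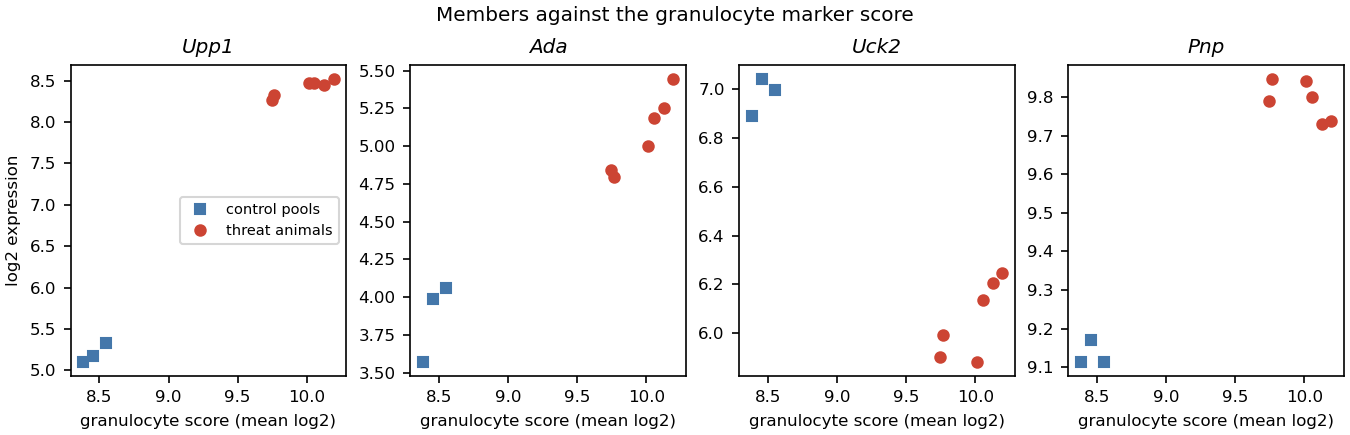
Log2 expression of Upp1, Ada, Uck2 and Pnp against the granulocyte score, the mean log2 value of 15 markers, in each array. Squares are the 3 control pools and circles the 6 threat animals, and the vertical scales differ between panels. Among threat animals Pearson's r with the score was 0.957 for Ada and 0.941 for Upp1, of which only that of Ada passed after adjustment. Upp1 moves within a range of 0.247.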

How the data were processed

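RNA was measured on 9 Affymetrix arrays. The authors deposited log2 values for each probe set; the submitters' processing notes name RMA, no source used here states its version or settings, and the log base was read from the values (0.607 to 13.567). RMA normalizes between arrays, so a change in total RNA per cell would not be seen, and gives no detection call.

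Symbols came from the platform annotation, updated by Entrez number to RefSeq (GRCm38.p6): of 45037 probe sets, 64 controls aside, 34945 name a single gene, and 34741 of these matched. Threat minus control was fitted with limma 3.58.1 (R 4.3.3; lmFit, eBayes, two-sided) on the 13078 genes at or above the 40th percentile, with Benjamini-Hochberg adjustment over all at 0.05. SE is limma's moderated standard error. No label gives a batch or says that animals were processed separately, so p-values measure the spread between these arrays. Relations used exact permutation tests (two-sided, scipy 1.17.1).

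Members and lists were chosen with earlier results of these data known. Named were the members, from each pathway list every gene called at 1.5-fold or more and the brightest, the 5 genes most like Upp1 and the brightest marker of each list; other genes were named after their values were seen. On simulated data for this comparison with 13078 genes the fit found 40% of 50 genes changed by 0.25, 96% of 50 changed by 0.5, 98% of 50 changed by 1 and 100% of 50 changed by 2, and made 11 false calls. The simulated noise was independent between genes, and far fewer genes were changed than the 45.8% that passed in the data. These rates and the number of false calls therefore do not carry over to the real fit. Alternatives were other filters, probe set rules, normalizations, moderation, weights, pair averages, a block, leaving out each array and, added after seeing the data, every probe set on its own.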

Additional observations from a re-analysis of the deposited data

How the results depend on the processing

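Under 19 alternatives the 5 members that passed beside Upp1 kept their direction and their side of the threshold, and Upp1 differed by 3.17 to 3.28. Upp1, Uck1, Pnp and Ada each had 1 probe set naming them alone. For these genes only the normalizations and leaving out an array could change the difference. Umps passed when single-transcript probe sets were preferred (0.17), and its difference turned to -0.010 without control pool 5-6; leaving out each array in turn gave -0.010 to 0.077. The numbers of genes that fell when each array was left out ran from 5 to 9 for purine synthesis and from 1 to 2 for pyrimidine synthesis, and the number that rose for deoxynucleotide supply from 2 to 4. With probe sets averaged per gene 1 transporter rose. The causes were not tested.

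Over all genes tested, animal numbers gave no common pairing, as deviations of same-numbered pools and threat pairs correlated at 0.149, -0.152 and -0.029. This does not cover single genes such as Ada, whose values followed the numbers in both groups. With the number pairs as a replicate block 5945 genes passed, against 5995, and 2 genes of pyrimidine synthesis fell. No call of a member changed, but limma adjusted p-values moved, from 1.7e-05 to 1.3e-07 for Ada and from 1.8e-07 to 8.9e-07 for Pnp. Counts over all genes ran from 5310 to 6283. Signal near background limits Cda and Dpyd, which had no test at the filter used, and a pool of 2 animals may vary less than single animals, which was not tested.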

Other observations

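Among threat animals the coefficients of some members with the marker scores had the sign opposite to what their difference between the groups and that of the score would give. Uck2 was lower and the granulocyte score higher in threat animals than in control pools, and within the threat group its r with the granulocyte score was 0.769 (exact permutation p = 0.0931, adjusted p = 0.151, n = 6; rho = 0.829, exact permutation p = 0.0583, adjusted p = 0.159), and 0.869 without the 2 arrays farthest from the median score. Pnp was higher in threat animals, as was the cell cycle score, and its r with that score was -0.687 (exact permutation p = 0.144, adjusted p = 0.206, n = 6; rho = -0.600, exact permutation p = 0.242, adjusted p = 0.302), and -0.919 without the 2 farthest arrays. Neither of these relations passed after adjustment over 30 relations. The values without the 2 farthest arrays come from few arrays over a narrow range of the score and were not tested. Ada was higher and the B cell score lower in threat animals, and within the threat group its r with that score was 0.971 (exact permutation p = 0.00139, adjusted p = 0.0278, n = 6), which passed. The granulocyte and cell cycle scores moved opposite to the B cell score between the groups. Among threat animals they followed it with r of 0.984 and 0.993. A member that follows both, such as Ada, therefore has the opposite sign for 1 of them, which is no separate observation. For Adk, which was higher in threat animals, the signs were alike for the granulocyte score and opposite for the B cell score. Its rho with the granulocyte score was 0.886 (exact permutation p = 0.0333, adjusted p = 0.159, n = 6) and r was 0.715 (exact permutation p = 0.0806, adjusted p = 0.151). With the B cell score rho was 0.943 (exact permutation p = 0.0167, adjusted p = 0.125) and r was 0.729 (exact permutation p = 0.0639, adjusted p = 0.151), and neither passed.

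In Cda the 3 control pools spread over 1.21 log2 units and the 6 threat animals over 0.073. Of these 9 values that of control pool 3-4, 2.83, lay above the filter on dim probe sets.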
